A study of Cavia porcellus with 12 samples.

Results

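The genes described here encode hepatic coagulation factors. The list names 10 of them: *F2* (prothrombin), *F5*, *F7*, *F9*, *F10*, *F11*, *F12*, *SERPINC1* (antithrombin), *PLG* (plasminogen) and *FGB* (the beta chain of fibrinogen). The members are those of the list that are rows of the authors' table of regularised log (rlog) values, which holds 11896 human orthologue symbols, and 9 of the 10 were found there. The exception was *SERPINC1*, the gene of the main plasma inhibitor of thrombin, which was not analysed here. The samples were liver tissue of 6 Dunkin Hartley guinea pigs with NASH, kept on a high-fat diet with added sucrose and cholesterol for 25 weeks, and of 6 healthy controls kept on chow for the same 25 weeks. All 12 animals were female and came from a single breeder. The animals with NASH had been chosen for bridging fibrosis, and the controls at random among animals without NASH and fibrosis. The livers were not perfused, so blood was part of the tissue. The animals are named by the numbers of their labels, 5, 10, 31, 32, 45 and 56 in controls and 2, 9, 11, 20, 41 and 65 in NASH.

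Blood clots through a chain of serine proteases that circulate as inactive precursors, most of them made by hepatocytes. Contact with foreign surfaces activates F12 and then F11 and F9, whereas tissue factor activates F7. Both routes lead to F10, which together with its cofactor F5 turns prothrombin into thrombin, and thrombin turns fibrinogen into fibrin. Plasminogen is the precursor of plasmin, the protease that dissolves fibrin. F2, F7, F9 and F10 need vitamin K for the carboxylation of their glutamate residues. In advanced liver disease the plasma level of these proteins is used as a measure of liver function.

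Library totals ranged from 16980274 to 28636467 counts for controls and from 23704607 to 33091460 counts for NASH. Levels are given in CPM, edgeR's counts relative to the library total after scaling with TMM factors, which correct for differences in library composition. Every member had at least 1247 counts in every animal, so counting error was small beside the differences between animals, and all 9 passed the authors' filter on low counts. A gene was called a DEG when its Benjamini-Hochberg adjusted p-value from edgeR's quasi-likelihood test, adjusted over all 11896 symbols, was under 0.05. Of all symbols, 53.9% were DEGs, 26.0% lower and 27.9% higher in NASH. Together the 9 members took 1.35 ± 0.109% of the counts of a control library (lowest 1.246%, highest 1.549%) and 1.18 ± 0.154% of those of a NASH library (lowest 0.993%, highest 1.403%, SD over n = 6 each).

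The transcripts of 8 of the 9 members were lower in guinea pigs with NASH and none was higher. The fall was largest for *F9*, to 0.434 of the control level, and smallest for *FGB*, to 0.695. *F5* was the exception, with a level in NASH of 0.923 of that in controls. The median log2 fold change of the 9 members was −0.80, and that of all symbols 0. In 5 members (*F2*, *F9*, *F10*, *F12* and *PLG*) every animal with NASH lay below every control in CPM, which was true of 15.3% of all symbols. No member had every animal with NASH above every control, against 18.4% of all symbols. These calls depend on what the counts are scaled to. With library size alone 5 members were lower and 1 higher, against 7.66% and 63.9% of all symbols. Relative to a list of hepatocyte transcripts 1 member was lower and 3 were higher, against 2.74% and 83.7% of all symbols, as described further on.

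**Figure D1:**
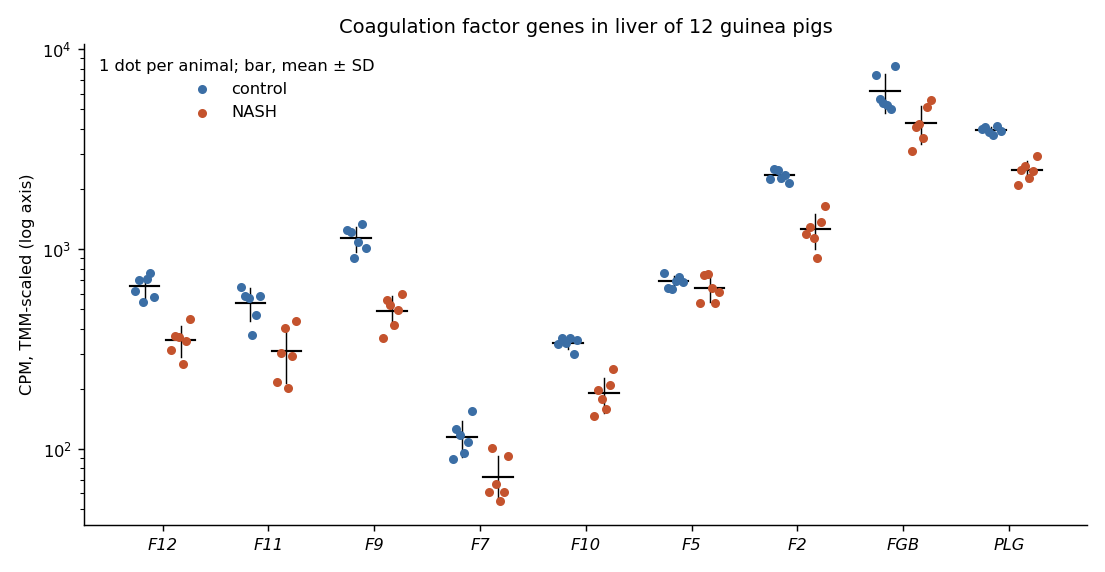
CPM of the 9 members (log axis) in 6 controls and 6 guinea pigs with NASH, 1 dot per animal, with a bar at the mean and a line for the SD. The groups are apart in *F2*, *F9*, *F10*, *F12* and *PLG*, overlap in part in *F7*, *F11* and *FGB*, and share most of their range in *F5*, at 632 to 759 CPM in controls and 538 to 747 CPM in NASH.

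Of the factors of the contact route, *F12*, whose protein starts this route, was at 543 to 757 CPM in controls (median 662) and at 267 to 449 CPM in NASH (median 355). No animal with NASH reached the lowest control, animal 31. The log2 fold change was −0.89 (SE 0.12, adjusted p = 6.09e-05 from edgeR). *F11*, the next protease, was at 372 to 647 CPM in controls (median 577) and at 201 to 437 CPM in NASH (median 296). Here control 32, at 372 CPM, lay below NASH animals 11 and 65, at 404 and 437 CPM, and the other 5 controls lay above all animals with NASH. *F11* fell by 0.80 on the log2 scale (SE 0.20, adjusted p = 0.00454 from edgeR).

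*F9*, the protease missing in haemophilia B, was at 899 to 1336 CPM in controls (median 1154) and at 358 to 597 CPM in NASH (median 511). The highest animal with NASH, number 65, was well below the lowest control, number 31. *F9* fell by 1.21 on the log2 scale (SE 0.14, edgeR adjusted p = 1.09e-05), the most of the members, with a mean of 1135 ± 162 CPM in controls and 493 ± 89.0 CPM in NASH (SD, n = 6 each). The cofactor of F9, *F8*, comes mainly from sinusoidal endothelium and is not a member. It was at 15.3 ± 1.99 CPM in controls and 13.2 ± 2.17 CPM in NASH (SD, n = 6 each), without passing the threshold (log2 fold change −0.22, adjusted p = 0.137 from edgeR).

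*F7*, the protease of the tissue factor route, had the lowest counts of the members, at 89.1 to 155 CPM in controls (median 113) and 55.1 to 102 CPM in NASH (median 63.8). Animals 9 and 65 with NASH, at 102 and 92.2 CPM, lay within the range of the controls, and the other 4 lay below it. *F7* was lower by 0.66 on the log2 scale (log2 fold change −0.66, SE 0.18, adjusted p = 0.00666 from edgeR). The gene for tissue factor itself, *F3*, was near its limit of detection at 0.508 ± 0.211 CPM in controls and 1.15 ± 0.363 CPM in NASH (SD, n = 6 each). The controls had 5 to 16 counts and the animals with NASH 26 to 55, and the groups did not overlap in CPM (log2 fold change 1.19, SE 0.31, adjusted p = 0.00618 from edgeR).

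*F10*, the protease on which both routes converge, was at 298 to 359 CPM in controls (median 344) and 147 to 251 CPM in NASH (median 188). The controls lay close together, with a coefficient of variation of 6.7% against 19.9% in NASH, and no animal of one group reached the other. *F10* fell by 0.84 on the log2 scale (SE 0.12, adjusted p = 6.93e-05 from edgeR). *F2*, the gene for prothrombin, was at 2146 to 2520.3 CPM in controls (median 2311) and 903 to 1652 CPM in NASH (median 1237). Again the groups were apart, and the spread was wider in NASH, with a coefficient of variation of 19.9% against 6.2% in controls. The log2 fold change was −0.90 (SE 0.12, adjusted p = 5.77e-05 from edgeR).

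*F5*, the cofactor of F10 in the activation of prothrombin, was at 632 to 759 CPM in controls (median 690.0) and 538 to 747 CPM in NASH (median 624). Animals 2, 41 and 65 with NASH were below all controls, and animals 9 and 11 were above 5 of the 6. Its log2 fold change was −0.12 (SE 0.10), which missed the threshold (edgeR's adjusted p = 0.341), and the 95% interval ran from −0.33 to 0.10. This interval leaves out the fold changes of the other 8 members as estimated, whose own intervals lay between −1.50 and −0.16.

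*FGB*, which encodes a chain of the clot's building block, was at 5002 to 8265 CPM in controls (median 5516) and 3098 to 5546 CPM in NASH (median 4164). Animals 41 and 65 with NASH, at 5132 and 5546 CPM, lay within the range of the controls. The log2 fold change was −0.52 (SE 0.17, adjusted p = 0.0187 from edgeR), and it passed the threshold whichever animal was left out, with a largest adjusted p-value of 0.0444 from edgeR. *PLG*, the precursor of plasmin, was at 3735 to 4122 CPM in controls (median 3945) and 2090.2 to 2941 CPM in NASH (median 2484). It varied less than any other member in both groups, with coefficients of variation of 3.7% in controls and 11.8% in NASH, and the groups were apart. *PLG* fell by 0.67 on the log2 scale (SE 0.09, adjusted p = 3.59e-05 from edgeR).

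Among the animals with NASH, the same individuals were high or low in most members. Animal 65 was the highest in 7 of the 9 members, and animals 2 and 20 were the lowest in 4 each. In controls no animal was highest in more than 3 or lowest in more than 3. Summed over the 9 members, the level was 8007 CPM in animal 2, 8514 CPM in animal 20, 10140.1 CPM in animal 9, 10281 CPM in animal 11, 10916 CPM in animal 41 and 12575 CPM in animal 65, all below the 14597 CPM of the lowest control. The hepatocyte markers described in the next paragraph had their lowest sums in animals 20 and 2 (36229 and 36488 CPM) and their highest in animal 65 (53285 CPM). The stellate cell markers had their highest sums in animals 20 and 2 (2461 and 2186 CPM) and their lowest in animal 65 (1213 CPM). Within-group variation was compared with that of all other symbols in log2 CPM centred on the group means. The 3 symbols whose variation over the 12 animals was most like the mean of the members were *C8B*, a complement component made by the liver (Pearson's r = 0.95), *APOF*, an apolipoprotein (r = 0.93), and *PHYH*, a peroxisomal enzyme (r = 0.93). These are the extremes among all symbols and share libraries and scaling with the members, so they are a description only. *C8B* and *PHYH* were lower in NASH (edgeR's adjusted p = 2.75e-06 and 8.75e-07), whereas *APOF* missed the threshold (log2 fold change −0.11, adjusted p = 0.433).

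**Figure D2:**
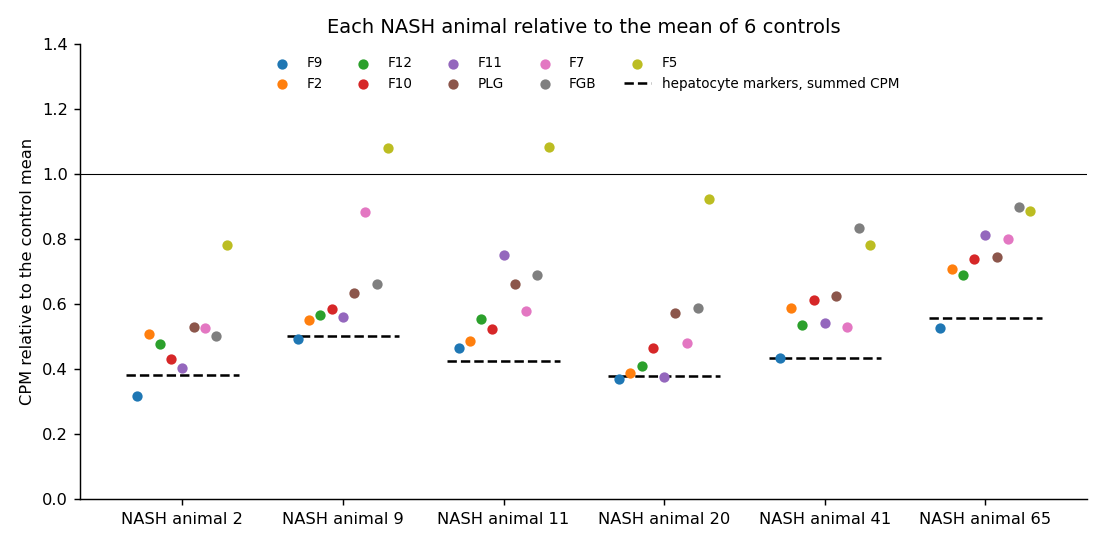
CPM of each member in each of the 6 guinea pigs with NASH, relative to the mean of the 6 controls (1 on the axis), with a dashed bar for the summed CPM of 9 hepatocyte markers treated in the same way. Animal 65 is the highest in 7 members, *F9* is the lowest member in every animal, and *F5* lies above 1 in animals 9 and 11.

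The liver label of the samples was checked on markers of hepatocytes, of which 9 of 10 were among the symbols. All 9 were detected in every animal, and 8 were lower in NASH and none higher. The log2 fold changes had a median of −0.91 and ran from −1.30 for *ARG1*, an enzyme of the urea cycle, to −0.18 for *ASGR1*, the asialoglycoprotein receptor. Their summed level, of which *ALB* is the largest part, was 85747 to 107792 CPM in controls and 36229 to 53285 CPM in NASH. In whole tissue, fewer hepatocytes and less RNA of a gene per hepatocyte cannot be told apart. Other cell types moved as well. All 4 cholangiocyte markers found of 6 were higher in NASH (sum 65.1 to 107 CPM in controls and 262 to 415 CPM in NASH), as were 7 of 9 stellate cell markers (617 to 755 and 1213 to 2461 CPM). The 7 erythroid markers found of 9 were also all higher (58.4 to 173 and 440 to 4634 CPM), with the highest sums in NASH animals 41 and 65. Of the platelet markers 5 of 11 were found, 2 of them higher, and they included neither *PF4* nor *PPBP*. Their sum was 130 to 232 CPM in controls and 277 to 313 CPM in NASH, most of it from *ITGB3* and *ITGA2B*, whose rows carry another symbol as well. The markers of macrophages (7 of 11 found, 1 higher and 1 lower), endothelium (9 of 11 found, 2 higher and 2 lower) and T cells (8 of 8 found, 2 higher and 1 lower) had overlapping sums in both groups. The part of these cells in the fall of the members was not tested. With NASH animals 41 and 65 left out, which was decided after the data were seen, the same number of members, 8, was lower.

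To set the members against other hepatocyte transcripts, the counts were scaled to the geometric mean of the 9 hepatocyte markers in each animal, and edgeR's test was repeated over all symbols. On this scale 2.74% of all symbols were lower and 83.7% higher in NASH, and the median log2 fold change of all symbols was 0.90. *F2*, *F10*, *F11* and *F12* had log2 fold changes of −0.01, 0.04, 0.09 and 0.00 with SEs of 0.09, 0.10, 0.18 and 0.11, and none of the 4 passed the threshold (edgeR's adjusted p = 0.897, 0.709, 0.649 and 0.983). *F7* missed it too (0.22, SE 0.16, edgeR's adjusted p = 0.213). *F9* was lower than the markers by this test, at −0.31 (SE 0.11, edgeR's adjusted p = 0.0189). *PLG* (0.22, adjusted p = 0.0255), *FGB* (0.35, adjusted p = 0.0405) and *F5* (0.79, adjusted p = 5.83e-05, all from edgeR) were higher than the markers. With library size alone, where the median of all symbols was 0.48 and 7.66% of symbols were lower and 63.9% higher, *F9*, *F2*, *F12*, *F10* and *PLG* were lower and *F5* was higher (0.36, adjusted p = 0.00312 from edgeR).

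**Figure D3:**
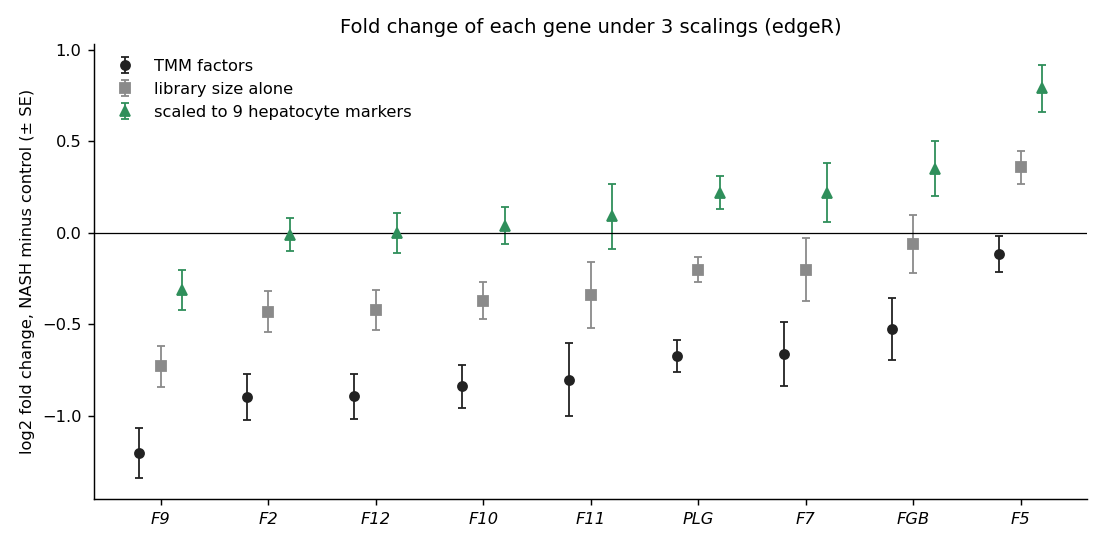
Log2 fold change (NASH minus control, with its SE) of each member from edgeR with TMM factors, with library size alone and with scaling to 9 hepatocyte markers, members ordered by the first. The scaling shifts all members together, and their order is nearly the same in all 3, with *F9* lowest at −1.21, −0.73 and −0.31 and *F5* highest at −0.12, 0.36 and 0.79.

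A ratio of 2 genes within an animal does not depend on the scaling. Over the 36 pairs of members, the ratio did not overlap between groups in 6 (16.7%), against 35.3% of all pairs of symbols. *F5* was part of 5 of the 6 pairs, those with *F2*, *F9*, *F10*, *F12* and *PLG*, and the other was *F9* with *PLG*. Ratios of 6 pairs of partners were chosen after the values of their genes were known, so they are given as a description with no test. *F5* to *F10*, the cofactor and the protease of the complex that activates prothrombin, had a ratio of 1.80 to 2.42 in controls and of 2.44 to 4.21 in NASH. Every animal with NASH lay above every control, although animals 65 and 41, at 2.44 and 2.58, lay close to the highest control. The mean log2 ratio was higher by 0.73 in NASH, from 1.02 ± 0.17 to 1.75 ± 0.34 (SD, n = 6 each). *F9* to *F8*, the protease and the cofactor of the complex that activates F10, went from a mean log2 ratio of 6.20 ± 0.30 to 5.21 ± 0.35 without overlap (SD, n = 6 each). Here too the gap was narrow, with a ratio of 51.6 in NASH animal 65 and of 53.1 in control 56.

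The 3 chains of fibrinogen are encoded by *FGA*, *FGB* and *FGG*, which lie next to each other in the guinea pig genome according to RefSeq. *FGA* was at 6441 to 9454 CPM in controls and 4013 to 6907 CPM in NASH (log2 fold change −0.55, SE 0.16, adjusted p = 0.00985 from edgeR). *FGG* was at 4820.1 to 7369 CPM in controls and 3089 to 5160.0 CPM in NASH (−0.54, SE 0.15, adjusted p = 0.00799 from edgeR). Both fell by nearly the same factor as *FGB*, and for all 3 chains animal 56 was the highest control, and animals 2 and 65 were the lowest and the highest with NASH. The ratio of *FGB* to *FGG* spanned −0.11 to 0.17 among controls and 0.00 to 0.10 among animals with NASH on the log2 scale, a difference in mean log2 ratio of 0.02. For *FGB* to *FGA* the ratios were 0.716 to 0.874 in controls and 0.762 to 0.870 in NASH, a difference in mean log2 ratio of 0.03. *F7* and *F10* are neighbours as well, and their ratio differed by 0.18 on the log2 scale with overlap between groups. *F11* lies next to *KLKB1*, the related gene for plasma prekallikrein. *KLKB1* fell further, from 459 ± 133 to 165 ± 27.5 CPM (SD, n = 6 each, log2 fold change −1.48, SE 0.17, adjusted p = 1.39e-05 from edgeR). The mean log2 ratio of *F11* to *KLKB1* was higher by 0.62 in NASH, with overlap between groups.

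**Figure D4:**
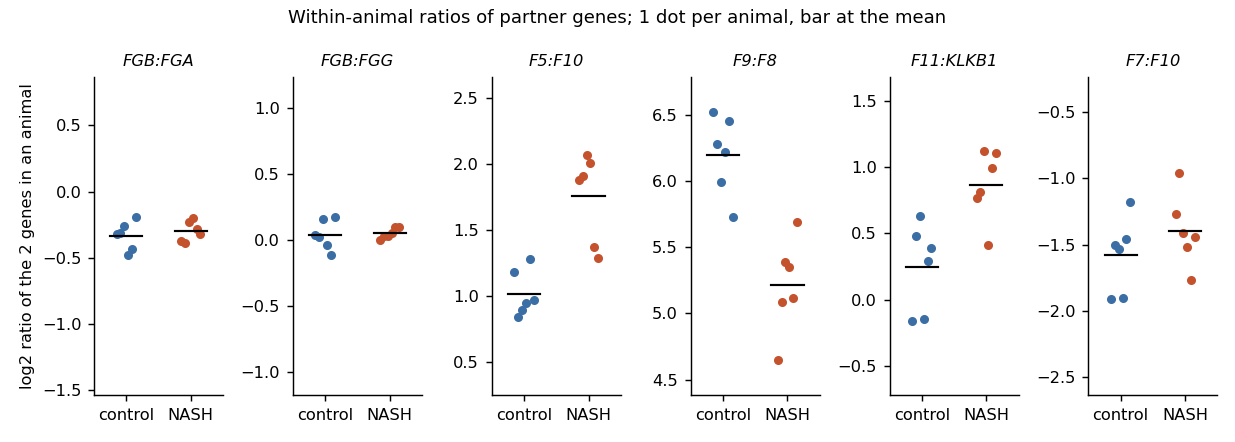
Log2 ratio of 6 pairs of partner genes in each animal, 1 dot per animal with a bar at the mean, on axes of equal length. The fibrinogen ratios and *F7* to *F10* overlap between groups, *F5* to *F10* is higher in every animal with NASH, at 1.29 to 2.07 against 0.84 to 1.28, and *F9* to *F8* is lower in every one.

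The other genes of the clotting system were counted over short lists of well-known genes. Of 9 other procoagulant genes 7 were among the symbols, 4 lower and 2 higher in NASH, and the median of their log2 fold changes was −0.54. The genes that fell, *KLKB1*, *FGA*, *FGG* and *KNG1* (high-molecular-weight kininogen, −0.66), are made by hepatocytes. The genes that rose were *F3* and *VWF*, the endothelial carrier of factor VIII, which went from 13.9 to 21.1 CPM in controls to 31.8 to 65.9 CPM in NASH (1.46, SE 0.16, adjusted p = 7.85e-06 from edgeR). Of 11 anticoagulant genes 8 were found, 5 lower and 2 higher, with a median of −0.58. *SERPIND1*, heparin cofactor II, fell most, from 663 ± 64.9 to 280.1 ± 47.0 CPM (SD, n = 6 each, log2 fold change −1.24, adjusted p = 2.17e-06 from edgeR). *PROC*, the gene for protein C, was lower by 0.81 on the log2 scale (log2 fold change −0.81, adjusted p = 8.48e-06 from edgeR). *TFPI2*, a protease inhibitor of the matrix, rose from 4.92 ± 2.74 to 22.1 ± 4.96 CPM (2.15, adjusted p = 5.27e-05 from edgeR), and *THBD*, the endothelial thrombin receptor thrombomodulin, had a log2 fold change of 0.70 (adjusted p = 0.00106 from edgeR). The shares to set these counts and those of the lists that follow against are 26.0% of all symbols lower and 27.9% higher. Relative to the hepatocyte markers, 5 of the 7 procoagulant genes were higher and 1 lower, and 4 of the 8 anticoagulant genes were higher and 1 lower, against 83.7% and 2.74% of all symbols on this scale.

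Of 11 genes of fibrinolysis 9 were found, 5 higher and 3 lower, and the median of their log2 fold changes was 0.67. While *PLG* fell, its activators rose, *PLAU* (urokinase) by 1.59 (SE 0.26, adjusted p = 0.000233 from edgeR) and *PLAT* (tissue plasminogen activator) by 0.67 (SE 0.16, adjusted p = 0.00314 from edgeR). *PLAUR*, the urokinase receptor, had a value of 1.01 (adjusted p = 0.000273 from edgeR), but its count row also carries *CADM4*, and the reads of the pair cannot be told apart. Inhibitors of fibrinolysis that the liver secretes were lower, unlike the activators. *CPB2*, which encodes a carboxypeptidase that protects fibrin, fell by 1.06 (adjusted p = 1.96e-05 from edgeR), *HRG* (histidine-rich glycoprotein) by 0.93 (adjusted p = 3.8e-05 from edgeR) and *SERPINF2* (alpha-2-antiplasmin) by 0.51 (adjusted p = 0.000497 from edgeR). Relative to the hepatocyte markers, 6 of these 9 genes were higher and 0 lower, against 83.7% and 2.74% of all symbols on this scale.

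Of 10 genes for the vitamin K cycle and for the processing and export of clotting factors, 8 were found, 6 lower and 2 higher, and the median of their log2 fold changes was −0.44. *GGCX*, the carboxylase that acts on F2, F7, F9 and F10, was higher in NASH, at 72.7 ± 3.65 CPM against 51.9 ± 5.30 CPM in controls (SD, n = 6 each), without overlap (log2 fold change 0.49, SE 0.07, adjusted p = 0.000114 from edgeR). *VKORC1*, the warfarin-sensitive enzyme that recycles vitamin K, was lower without overlap, at 37.9 ± 4.79 CPM against 61.5 ± 8.10 CPM (−0.70, SE 0.11, adjusted p = 0.000127 from edgeR). *NQO1*, a quinone reductase, had the lowest log2 fold change of the list, −0.74 (adjusted p = 0.000373 from edgeR). *FURIN*, a protease that removes propeptides, had a log2 fold change of −0.69 (adjusted p = 0.00172 from edgeR). *LMAN1* and *MCFD2*, the receptor pair that carries F5 and F8 out of the endoplasmic reticulum, had log2 fold changes of −0.50 and −0.37 (adjusted p = 0.00198 and 0.0059 from edgeR). Relative to the hepatocyte markers, 5 of these 8 genes were higher and 0 lower, against 83.7% and 2.74% of all symbols on this scale.

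Of 14 transcription factors of liver genes 10 were found, 5 lower and 1 higher, and the median of their log2 fold changes was −0.41. *DBP* is counted among those found without passing the threshold (0.03, adjusted p = 0.748 from edgeR). Its count row also carries *RPL18* and *MAMSTR*, and their reads cannot be told apart. *HNF4A* and *CEBPA*, known regulators of several clotting factor genes, were on the list and were not analysed here. *FOXA2* had the lowest value, −1.98 (SE 0.36, adjusted p = 0.000501 from edgeR), from 9.67 ± 3.73 to 2.44 ± 1.46 CPM (SD, n = 6 each). *RXRA*, the shared partner of many nuclear receptors, fell by 1.03 (adjusted p = 0.000465 from edgeR). *NR1H4*, the bile acid receptor, was the only one higher, with 0.52 (adjusted p = 0.014 from edgeR), and it lost this call when animals 41 and 65 were left out. Relative to the hepatocyte markers, 4 of these 10 factors were higher and 1 lower, against 83.7% and 2.74% of all symbols on this scale.

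**Figure D5:**
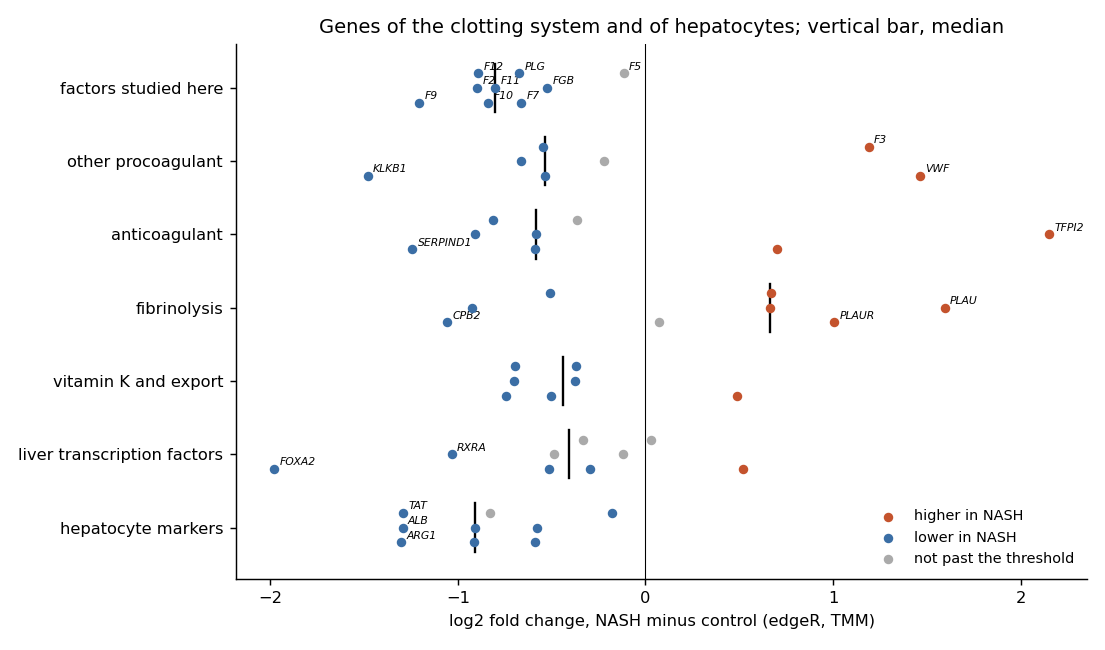
Log2 fold change (NASH minus control, edgeR with TMM factors) of each gene of the members, of 5 lists of the clotting system and of the hepatocyte markers, with a vertical bar at the median of each list and names for the members and for values of at least 1 in size. The medians are over all genes found, of which 3 are not drawn. The members and the hepatocyte markers lie at −0.80 and −0.91 in the median, and the fibrinolysis list at 0.67.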

How the data were processed

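Liver RNA of 12 guinea pigs was sequenced as stranded mRNA libraries from a single end. The authors trimmed the reads with Trimmomatic 0.38.0, mapped them with HISAT2 2.1.0 to Cavpor3.0, ignored multimapped reads and quantified loci with StringTie 1.3.6, as the paper's methods and the submitters' processing notes state. The authors deposited raw counts per locus, without symbols, and rlog values on a log2 scale, made with DESeq2, per human orthologue symbol with at least 200 counts in total. No sequence table was used here, so no sequence is printed.

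To pair symbols with count rows, the rlog transformation was run again in DESeq2 1.42.0 and its output matched to the deposited values. The repeated and the deposited values differed by at most 8.4e-07, and the 11896 symbols came from 11031 of 39061 count rows. Each member had a row of its own. Counts were tested in R 4.3.3 with edgeR 4.0.16 (TMM factors, library sizes from all count rows, robust glmQLFit and glmQLFTest). The SE is the absolute log2 fold change over the square root of F. Log2 CPM values used a prior count of 2. Figures were drawn with matplotlib 3.10.9. Neighbouring genes were taken from RefSeq's table of assembly mCavPor4.1, so no coordinate is given.

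Members and lists were chosen with earlier results of these data known. All members were named, and of the other lists the highest and lowest gene, DEGs at or past 1 on the log2 scale and *FGA* and *FGG*. Further genes (among them *F8*, *KNG1*, *PROC*, *THBD*, *PLAT*, *HRG*, *SERPINF2*, *GGCX*, *VKORC1*, *FURIN*, *LMAN1*, *MCFD2* and *NR1H4*) were chosen after their values were seen. A few genes of the lists, counted with them, are not reported here by name. Alternatives were RLE and upper-quartile factors, library size alone, scaling to hepatocyte markers, DESeq2, limma 3.58.1 on the rlog values, all count rows above 0, filterByExpr, a stricter threshold (0.01) and the omission of single animals. The procedures were tested on simulated data. The labels give no batch, and none was compared. Within groups, the variance between any pair of libraries was 44.5 times that of counting error or more, so none was counted as a repeat of another.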

Additional observations from a re-analysis of the deposited data

How the results depend on the processing

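The log2 fold changes of all 9 members kept their direction and their side of the threshold with RLE or upper-quartile factors, DESeq2, limma on the rlog values, every row with at least 1 count, filterByExpr, each of the 12 animals left out in turn, and NASH animals 41 and 65 left out together. At a threshold of 0.01 only *FGB* changed sides (−0.52, adjusted p = 0.0187 from edgeR), the vitamin K and export list had 1 gene higher in place of 2, and the transcription factor list 0 in place of 1. The last count was also 0 without animals 41 and 65. At 0.01 the genes lower went from 5 to 4 in the anticoagulant and transcription factor lists and from 6 to 5 in the vitamin K and export list, and those higher from 5 to 4 in the fibrinolysis list. With single animals left out, the genes lower numbered 4 to 6 in the anticoagulant and transcription factor lists. With each animal left out, the log2 fold change lay between −1.27 and −1.13 for *F9*, between −0.17 and −0.07 for *F5* and between −0.62 and −0.42 for *FGB*.

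With library size alone, 7603 symbols were higher and 911 lower. Of the members 1 was higher and 5 lower, *F5* turned to 0.36, and *F7* (−0.20), *F11* (−0.34) and *FGB* (−0.056) no longer passed the threshold (adjusted p = 0.31, 0.112 and 0.759 from edgeR). The genes lower were 1 of the procoagulant list, 3 of the anticoagulant list and 0 of the vitamin K and export list, and the transcription factor list had 2 higher and 3 lower. With scaling to hepatocyte markers, 9956 symbols were higher and 326 lower. Of the members 3 were higher and 1 lower, *F2* (−0.013) and *F12* (−0.002) no longer passed the threshold, and *F5* (0.79), *F7* (0.22), *F10* (0.039), *F11* (0.086), *PLG* (0.22) and *FGB* (0.35) changed sign. The procoagulant list then had 5 genes higher and 1 lower, the anticoagulant list 4 and 1, the vitamin K and export list 5 and 0 and the transcription factor list 4 and 1, and the fibrinolysis list 0 lower. The hepatocyte markers themselves fell, so this scaling measures the members against them and not against the tissue. No paired analysis was possible because the animal numbers are not shared between the groups.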
